A study of Homo sapiens with 18 samples.

Results

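H/ACA box small nucleolar RNAs (snoRNAs, symbols beginning with SNORA) and small Cajal body RNAs (scaRNAs, symbols beginning with SCARNA) were followed in poly-A RNA of HEK293T cells. They were the 57 genes with such a symbol whose mean over the 18 libraries lay at least 0.5 above the lowest value of the deposited log2 table. These 57, of which 52 were SNORA and 5 SCARNA genes, came from 155 rows with a matching symbol, in a table of 37096 named genes. Because the level chose them, their mean levels are a description only. The 98 rows below the threshold held 2839 reads in all, against 39618 reads for the 57.

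HEK293T is an easily transfected human embryonic kidney line, and its genotype is labelled wild type in every group. Methionase is an enzyme that breaks down methionine, and the construct used here carries a nuclear localisation signal (MethionaseNLS). The 6 groups of 3 libraries were MethionaseNLS for 24 h with Vps34IN1, MethionaseNLS for 24 h with DMSO, the empty pLEX vector for 24 h with Vps34IN1, the empty vector for 24 h with DMSO, MethionaseNLS for 12 h with DMSO, and the empty vector for 12 h with DMSO. Vps34IN1, an inhibitor of the lipid kinase VPS34, was given at 5 µM for 12 h, and DMSO is its vehicle. Every group was transfected, and none is labelled as carrying an inactive methionase, so the activity of the enzyme and the presence of a foreign nuclear protein cannot be told apart. The labels do not say that the 3 libraries of a group came from separate cultures, and p-values therefore measure only the spread between these samples.

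An H/ACA RNA folds into hairpins joined by a hinge, the H box, and ends in the trinucleotide ACA. It is bound by dyskerin, NOP10, NHP2 and GAR1, and its hairpin loops base pair with ribosomal RNA, or with spliceosomal RNA in the case of many scaRNAs, so that dyskerin converts a chosen uridine to pseudouridine. Most human H/ACA RNAs lie in introns of host genes, many of which encode ribosomal proteins or are non-coding snoRNA host genes (SNHG), and are released when the intron is debranched and trimmed. The mature RNAs carry no long poly-A tail, so the reads counted here are the part of these RNAs, or of longer RNAs across the same place, that passed an oligo-dT selection. Mature snoRNA, tailed precursor and unspliced or alternatively spliced host RNA cannot be told apart in a table with 1 value per gene.

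Sequences of 7 members follow, because the results turn on them. SNORA73B and SNORA73A share the host SNHG3 and showed large differences with methionase. SNORA8 lies in TAF1D and had a lower methionase response under Vps34IN1. SNORA64 and SNORA62 lie in ribosomal protein genes, SNORA5C was called in no comparison, and SCARNA12 had the highest mean read count of the 5 scaRNAs. They are RNA-strand sequences from the GENCODE release 29 transcripts on GRCh38, written 5′ to 3′ with T for U. Capitals mark the match to ANANNA (the consensus of the H box) nearest the middle and the ACA nearest the 3′ end.
SNORA73B: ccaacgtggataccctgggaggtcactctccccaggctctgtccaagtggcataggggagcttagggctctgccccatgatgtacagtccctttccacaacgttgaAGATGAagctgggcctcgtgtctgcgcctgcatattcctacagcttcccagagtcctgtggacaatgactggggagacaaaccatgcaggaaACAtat
SNORA73A: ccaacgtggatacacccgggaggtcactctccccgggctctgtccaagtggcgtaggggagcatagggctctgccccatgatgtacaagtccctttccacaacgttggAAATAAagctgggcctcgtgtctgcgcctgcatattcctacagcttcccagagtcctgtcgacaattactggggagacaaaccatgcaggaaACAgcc
SNORA8: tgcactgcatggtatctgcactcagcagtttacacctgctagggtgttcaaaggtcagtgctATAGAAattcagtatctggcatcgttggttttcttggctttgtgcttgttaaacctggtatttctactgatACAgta
SNORA64: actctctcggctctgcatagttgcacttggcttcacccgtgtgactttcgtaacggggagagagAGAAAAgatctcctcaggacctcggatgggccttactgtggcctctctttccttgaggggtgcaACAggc
SNORA62: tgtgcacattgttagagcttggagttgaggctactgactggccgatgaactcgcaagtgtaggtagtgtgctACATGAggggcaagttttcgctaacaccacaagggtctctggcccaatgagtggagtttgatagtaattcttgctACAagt
SNORA5C: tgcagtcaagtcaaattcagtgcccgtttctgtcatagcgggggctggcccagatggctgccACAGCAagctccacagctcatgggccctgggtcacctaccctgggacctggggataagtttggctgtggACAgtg
SCARNA12: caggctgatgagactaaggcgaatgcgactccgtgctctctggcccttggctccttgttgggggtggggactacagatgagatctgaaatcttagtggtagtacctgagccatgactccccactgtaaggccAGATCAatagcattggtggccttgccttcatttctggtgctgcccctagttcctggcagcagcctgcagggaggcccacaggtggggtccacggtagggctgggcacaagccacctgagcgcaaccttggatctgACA
These genes lie at chr1:28508559-28508762 on the plus strand (SNORA73B), chr1:28507366-28507571 plus (SNORA73A), chr11:93732361-93732499 minus (SNORA8), chr16:1962973-1963106 minus (SNORA64), chr3:39411054-39411206 plus (SNORA62), chr7:45104906-45105042 minus (SNORA5C) and chr12:6967337-6967606 minus (SCARNA12). SNORA73B and SNORA73A are 93.2% identical, so reads could be split between them.

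The letters of most members went with the class name. Of the 53 members with a GENCODE sequence, 38 (71.7%) had ACA exactly 3 bases before the 3′ end, against 1.4% of 278 annotated C/D box snoRNAs (SNORD) and 0.6% of 4122 other small nuclear and miscellaneous RNAs. A match to ANANNA lay within 10% of the length from the middle in 94.3% of the members, in 29.1% of the SNORD sequences and in 58.3% of the other small RNAs. Of the 4 scaRNAs with a sequence, 1 had the ACA at that place. From general knowledge, SCARNA9 is a C/D box RNA and SCARNA10 and SCARNA12 carry both kinds of box, so the symbol rule takes in more than H/ACA RNAs. Both motifs were searched on the RNA strand only, and a match is a description of letters, not of a working box. The members were 86 to 353 bases long with a median of 134. A host gene with a row in the table was assigned to 50 of them, 35 hosts in all. GENCODE places 18 of the 50 in introns of the host only, and 32 also overlap an exon of at least 1 host transcript. For 10 members there was another matching row with at least 90% sequence identity, among them SNORA10, SNORA40, SNORA9, SNORA63 and both SNORA73 copies, and their counts are uncertain where reads could be split.

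Read counts were low. The libraries held 18278586 to 20825232 reads on genes, of which 925 to 5110 fell on the 57 members. Single members had 113 to 4395 reads over all libraries. SNORA40 took 11.1% of the member reads, and the 8 with most reads, SNORA40, SNORA70, SNORA64, SNORA9, SNORA67, SNORA8, SNORA32 and SNORA73A, took 43.9%. Scaled by length and library total (RPKM, computed from the recovered reads), levels ran between 0.966 (SCARNA10) and 98.1 (SNORA40), with SNORA70 at 56.1 and SNORA64 at 55.1. At the threshold, SCARNA10 (0.505 log2 above the lowest value) and SNORA41 (0.501) were just inside, and SNORA53 (0.495) and SNORA71E (0.490) just outside. Of 7 markers listed for the line, 6 had at least 53.1 normalised reads in every library, among them the kidney factor PAX2 with 99.1 to 190.3. The other kidney factor, LHX1, had only 2.1 to 14.9. With methionase at 24 h in DMSO, 5 of the 7 were called higher and 0 lower. Of the markers of other cell types, the T cell gene CD3E had 0.0 to 1.1 normalised reads, the endothelial PECAM1 0.0 to 4.1, the hepatocyte gene ALB 0.0 to 20.3 and the fibroblast gene COL1A1 402.5 to 671.6. Without COL1A1 these markers summed to 6.6 to 19 with methionase and Vps34IN1, 7.4 to 24.4 with methionase in DMSO, 5.1 to 6.2 with the vector and Vps34IN1 and 0.9 to 3.6 with the vector in DMSO at 24 h. At 12 h they summed to 4.6 to 11.5 with methionase and 1.8 to 3.7 with the vector, and their part in the results was not tested.

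The summed share of reads on the 57 members was 0.0254% ± 0.00226 with methionase and Vps34IN1 (SD, n = 3 in each group) and 0.0172% ± 0.00513 with methionase in DMSO at 24 h. It was 0.00886% ± 0.0020 with the vector and Vps34IN1, and 0.00523% ± 0.00125 with the vector in DMSO at 24 h. At 12 h the shares were 0.00619% ± 0.000404 with methionase and 0.0052% ± 0.00068 with the vector. There every methionase library (0.00595% to 0.00666%) lay above every vector library (0.00446% to 0.00579%). Relative to the 24 h vector in DMSO, methionase with the drug was thus 4.86 times as high, methionase alone 3.30 times and the drug alone 1.69 times. With methionase in DMSO at 24 h, replicate 2 (0.0231%) stood above replicates 1 (0.0136%) and 3 (0.0150%), and all 3 exceeded every vector library. A sum over members carries no test here, since the members were chosen by level.

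**Figure D1:**
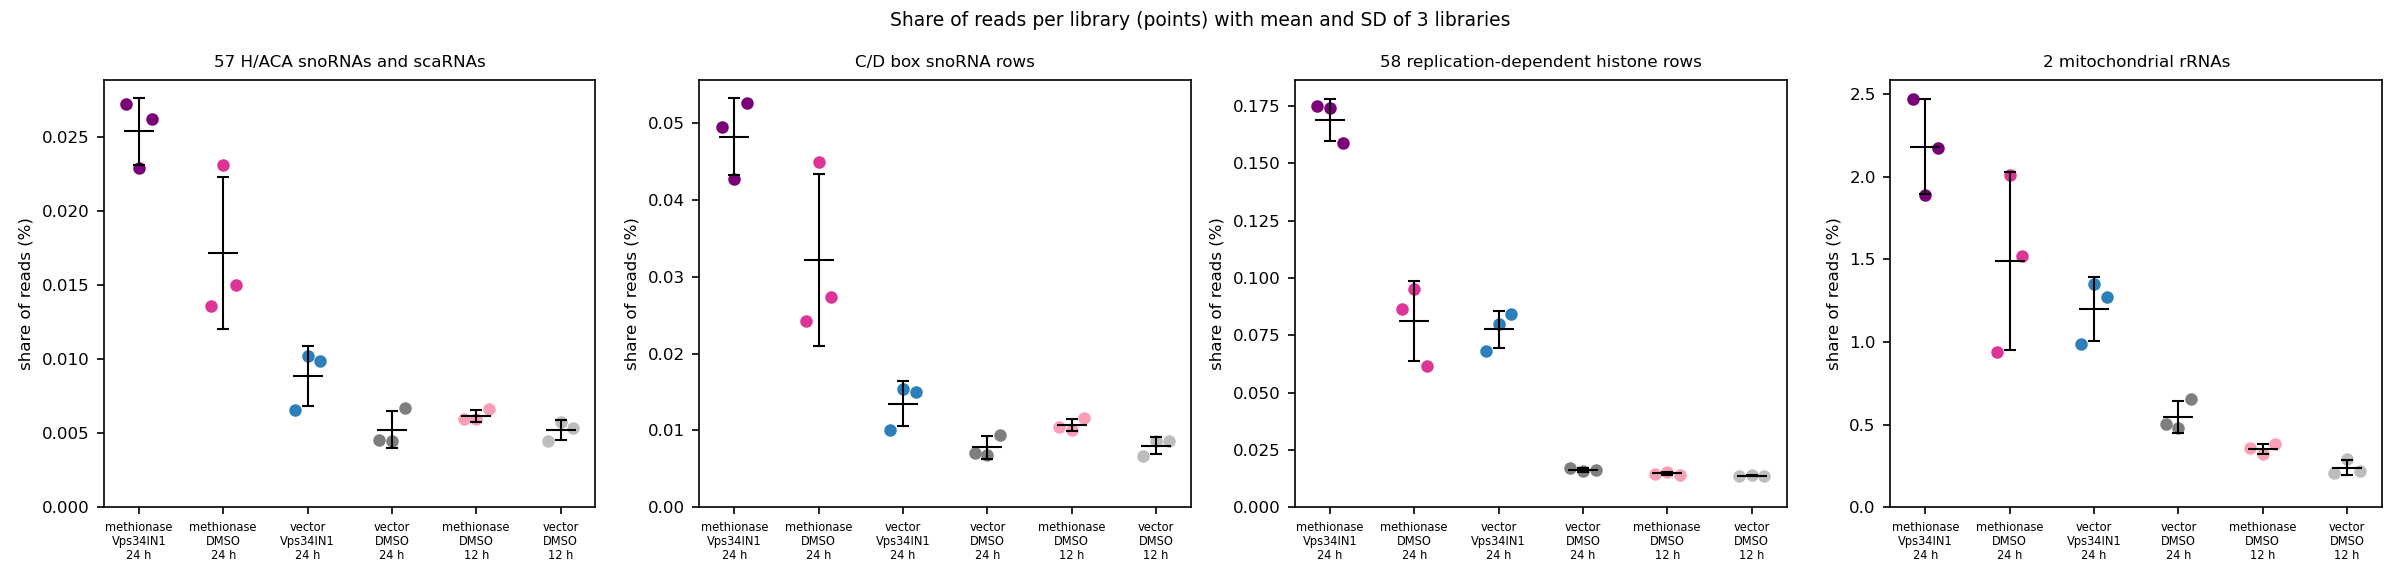
Share of all gene reads (%, vertical axes start at 0) on the 57 H/ACA members, on 187 C/D box snoRNA rows, on 58 histone rows and on 2 mitochondrial rRNAs, by group; points are libraries, bars the mean and SD of 3. The member share reached 0.0254% with methionase and Vps34IN1, and at 12 h was 0.00619% with methionase and 0.0052% with the vector. The 3 other RNA classes plotted were also highest in the group with both treatments.

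Of other RNAs that lack a long poly-A tail in their usual form, C/D box snoRNAs, histone mRNAs, mitochondrial rRNAs and RN7SK were highest in the group with both treatments, and RN7SL1 was not. C/D box snoRNA rows, the guides of 2′-O-methylation, took 0.0482% ± 0.00501 of reads with methionase and Vps34IN1, 0.0322% ± 0.0112 with methionase in DMSO, 0.0135% ± 0.00295 with the vector and Vps34IN1 and 0.00779% ± 0.00146 with the vector in DMSO at 24 h. Histone rows took 0.169%, 0.0812%, 0.0776% and 0.0163% in the same 4 groups, and the 2 mitochondrial rRNAs 2.18%, 1.49%, 1.20% and 0.548%. The replicate of methionase in DMSO that was highest for the members, replicate 2, was also highest for C/D snoRNAs (0.0449%), histones (0.0952%) and mitochondrial rRNA (2.01%). RN7SK, a short RNA polymerase III transcript, averaged 92.3 ± 9.2, 43.1 ± 6.2, 17.1 ± 2.3 and 7.7 ± 1.4 normalised reads in these groups. RN7SL1, the RNA of the signal recognition particle and also a polymerase III transcript, averaged 17.1 ± 5.4, 22.7 ± 2.6, 26.7 ± 13.8 and 28.7 ± 18.7 and was not called in any comparison among these 4 groups. At 12 h, methionase and vector cells had 0.0107% and 0.00801% on C/D rows, and 0.355% and 0.24% on mitochondrial rRNA. Vector cells in DMSO thus had more mitochondrial rRNA at 24 h than at 12 h, while their member share was 0.00523% and 0.0052%. A change in how much untailed RNA passed the selection and a change in the level of the snoRNAs cannot be told apart in these data. Neither can a change in the number of expressing cells and a change in RNA per cell.

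With methionase at 24 h in DMSO, 48 of the 57 members were called higher than with the empty vector and 0 lower (limma on the deposited values, Benjamini-Hochberg adjusted p below 0.05 over 17755 genes tested). Of all genes tested, 18.1% were called higher and 21.1% lower. At an unadjusted p below 0.05, 51 members were higher and 0 lower, and limma voom on the recovered reads called 49 higher and 0 lower. The median member differed by 0.66 on the log2 scale, against 0.01 for all genes. In 46 members every methionase library exceeded every vector library, against 23% of all genes tested, and the same held in 69 of the 155 matching rows, against 15% of all named genes. Some members reached the level threshold only through the groups where they were high, and 46 of the 57 would pass on the vector libraries in DMSO at 24 h alone, of which 38 were called. The variance-stabilised scale compresses genes with few reads, so ratios of mean normalised reads are given beside log2 differences.

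**Figure D2:**
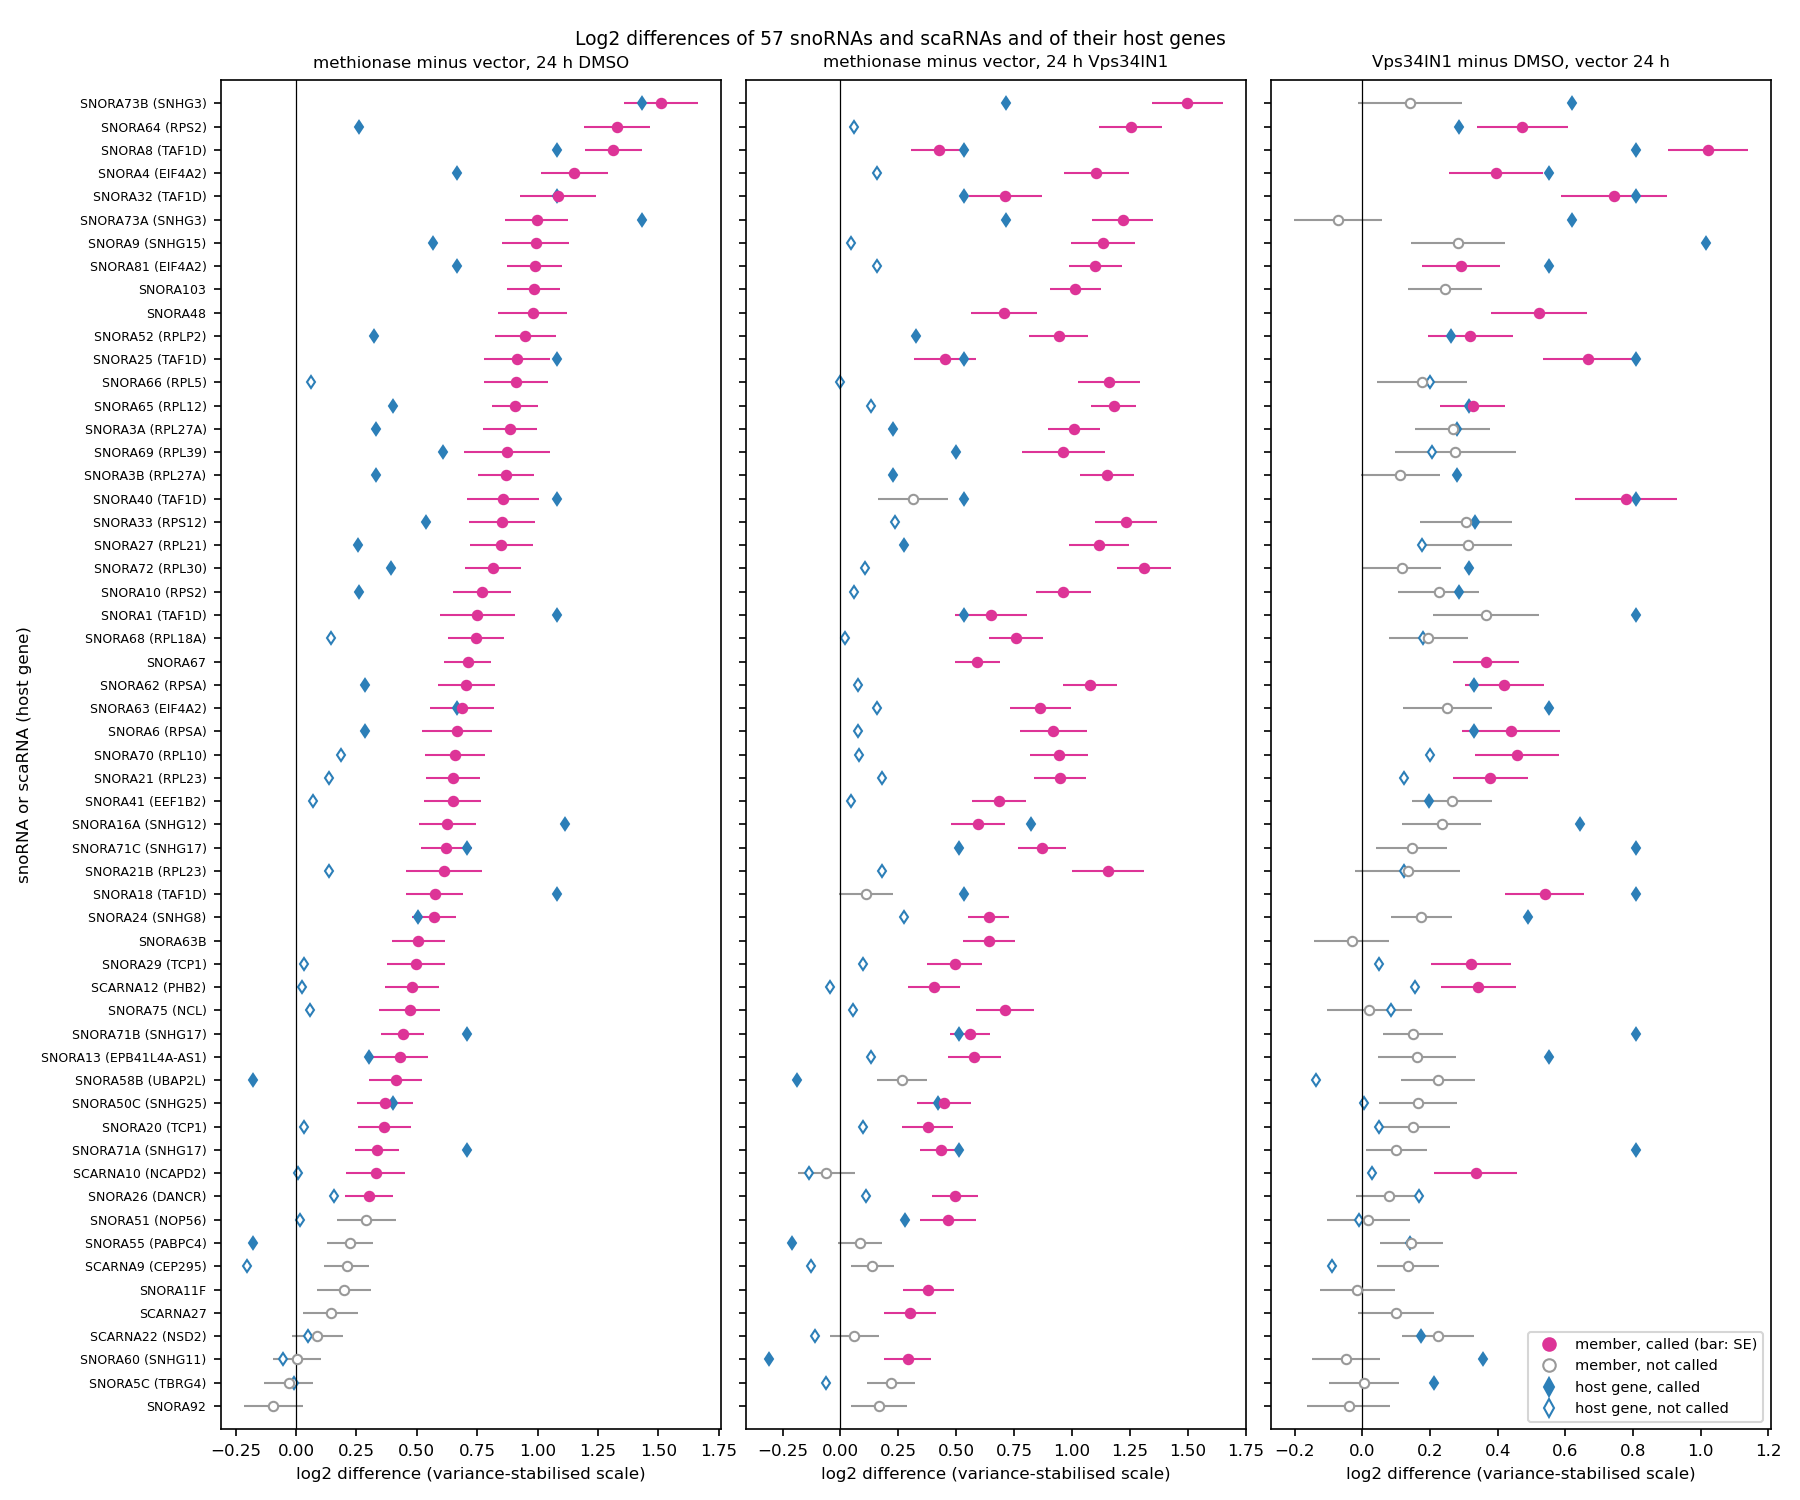
Log2 difference on the variance-stabilised scale (horizontal axes) of each member (circles, bars are SE, filled where called) and its host gene (diamonds, filled where called) in 3 comparisons, ordered by the first; the vertical axis names the member and its host. With methionase in DMSO the members run between -0.09 (SNORA92) and 1.51 (SNORA73B), and 39 of 50 lie above their host. The scale compresses genes with few reads, so members and hosts are not compressed alike.

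SNORA73B and SNORA73A, the copies in SNHG3 that take part in the cleavage of the 18S rRNA precursor rather than in pseudouridylation, were among the members that differed most. SNORA73B had 140.1, 204.2 and 76.2 normalised reads with methionase in DMSO at 24 h, against 11.8, 10.2 and 15.7 with the vector. The groups did not overlap, and the means differed 11.13-fold (log2 difference 1.51 ± 0.15 SE, adjusted p = 5.9e-08). SNORA73A had 143.3, 212.7 and 102.6 normalised reads with methionase, against 39.2, 42.8 and 48.0 with the vector. It also separated the groups, with a 3.53-fold ratio of means (log2 difference 0.996 ± 0.13 SE, adjusted p = 2.2e-06). Their host SNHG3, a spliced RNA with no known protein, had 8002.1, 8618.0 and 6426.3 normalised reads with methionase and 2876.2, 2405.7 and 3086.5 with the vector, a 2.75-fold ratio.

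In other SNHG genes the ratios of member and host were as follows. SNORA9 in SNHG15 was 3.32-fold higher with methionase and its host 1.53-fold, while SNORA16A in SNHG12 was 2.82-fold higher and its host 2.37-fold. SNORA71C, SNORA71B and SNORA71A in SNHG17 had ratios of 4.07, 2.88 and 2.40 and the host 1.81. SNORA60 in SNHG11 had 10.7, 12.8 and 11.2 normalised reads with methionase and 11.8, 7.4 and 15.7 with the vector, which overlap, and its host had a ratio of 0.96. SNORA24 in SNHG8 had a ratio of 4.02 and the host 1.45. With the vector, SNORA71C, SNORA71B, SNORA71A and SNORA24 averaged only 8.9, 9.2, 7.7 and 7.7 normalised reads, so their ratios rest on few reads. SNORA50C in SNHG25 went the other way, with a ratio of 1.67 against 2.86 for its host, which had few reads (means of 22.8 with methionase and 8.0 with the vector), and its own groups overlap. Of the 10 members in SNHG hosts, 9 were called higher and SNORA60 was not.

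The 17 members in 13 ribosomal protein genes were all called higher with methionase at 24 h in DMSO, with log2 differences between 0.61 and 1.33 and a median of 0.85. The limit given above for members that passed the level threshold only through high groups holds for this count too. SNORA64, which lies in RPS2, the gene of a small-subunit protein, had 213.9, 346.6 and 220.3 normalised reads with methionase and 52.8, 52.1 and 80.3 with the vector. The groups were far apart, with a ratio of 4.22 (log2 difference 1.33 ± 0.14 SE, adjusted p = 5.6e-08). SNORA10 in the same gene had a ratio of 3.78. RPS2 itself had a ratio of 1.20 and a log2 difference of 0.26 (adjusted p = 0.024), which turned to -0.34 with quantile normalization. SNORA62 in RPSA had 58.8, 91.4 and 49.8 normalised reads with methionase against 13.7, 17.7 and 31.4 with the vector (log2 difference 0.71 ± 0.12 SE, adjusted p = 4.0e-05). RPSA had 48214.7, 49809.2 and 50569.4 against 40397.6, 40990.2 and 40371.4, a ratio of 1.22 where the snoRNA had 3.19. SNORA66 in RPL5 had a ratio of 7.34 while RPL5 was not called (ratio 1.04, log2 difference 0.06 ± 0.08 SE). The vector libraries held only 6.4, 6.5 and 8.3 normalised reads of SNORA66, so that its ratio rests on few reads.

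TAF1D encodes a subunit of the RNA polymerase I selectivity factor, and 6 members lie in its introns or variably spliced exons. All 6 were called higher with methionase in DMSO. SNORA8 had 132.6, 180.8 and 161.4 normalised reads with methionase and 30.0, 18.6 and 36.9 with the vector, with no overlap and a ratio of 5.55 (log2 difference 1.31 ± 0.12 SE, adjusted p = 9.5e-09). SNORA32, SNORA25, SNORA40, SNORA1 and SNORA18 had log2 differences of 1.08, 0.91, 0.86, 0.75 and 0.57. In the same order they averaged 139.5, 52.1, 319.0, 45.4 and 28.0 normalised reads with methionase. With the vector they averaged 34.1, 7.4, 139.5, 8.9 and 6.8. TAF1D had a log2 difference of 1.08 ± 0.10 SE and a ratio of 2.18, so that in this cluster host and snoRNAs both rose. The helicase gene EIF4A2, an initiation factor, likewise rose (ratio 1.6), with ratios of 8.72 for SNORA4, 17.17 for SNORA81 and 6.07 for SNORA63. The vector libraries held only 1.8, 2.8 and 2.8 normalised reads of SNORA81, so that its ratio rests on few reads. SNORA4 and SNORA63 averaged 9.5 and 5.8 normalised reads with the vector, and the same limit holds for them.

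Of 14 members in other hosts, 9 were called higher, with a median log2 difference of 0.35. SCARNA12, in the prohibitin gene PHB2, had 41.7, 73.4 and 72.1 normalised reads with methionase and 20.0, 31.6 and 36.0 with the vector (log2 difference 0.48 ± 0.11 SE, adjusted p = 0.0014). The groups did not overlap, and PHB2 differed by 0.02 ± 0.07 SE. SNORA58B had a log2 difference of 0.41 ± 0.11 SE while its host UBAP2L, a protein of stress granules, fell by 0.18. Of the 5 scaRNAs, SCARNA12 and SCARNA10 were called, and SCARNA10 (log2 difference 0.33, adjusted p = 0.037) lost its call in 6 alternative settings. The 9 members not called were SNORA51, SNORA55, SCARNA9, SNORA11F, SCARNA27, SCARNA22, SNORA60, SNORA5C and SNORA92. Of the 57, 5 (SCARNA22, SCARNA9, SNORA55, SNORA5C and SNORA92) were called in no comparison. SNORA5C, in TBRG4, had 3.2, 11.7 and 2.0 normalised reads with methionase and 2.7, 5.6 and 9.2 with the vector, at which depth only a large difference could be seen.

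Across the 50 pairs of member and host, many of which share a host and all of which share libraries, the log2 differences had a Spearman rho of 0.62. The member lay above its host in 39 pairs. Both values rest on the variance-stabilised scale, which compresses genes with few reads, and most members had fewer reads than their host. Among the hosts themselves, 18 of 35 were called higher and 2 lower, where 18.1% and 21.1% of all genes were called.

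**Figure D3:**
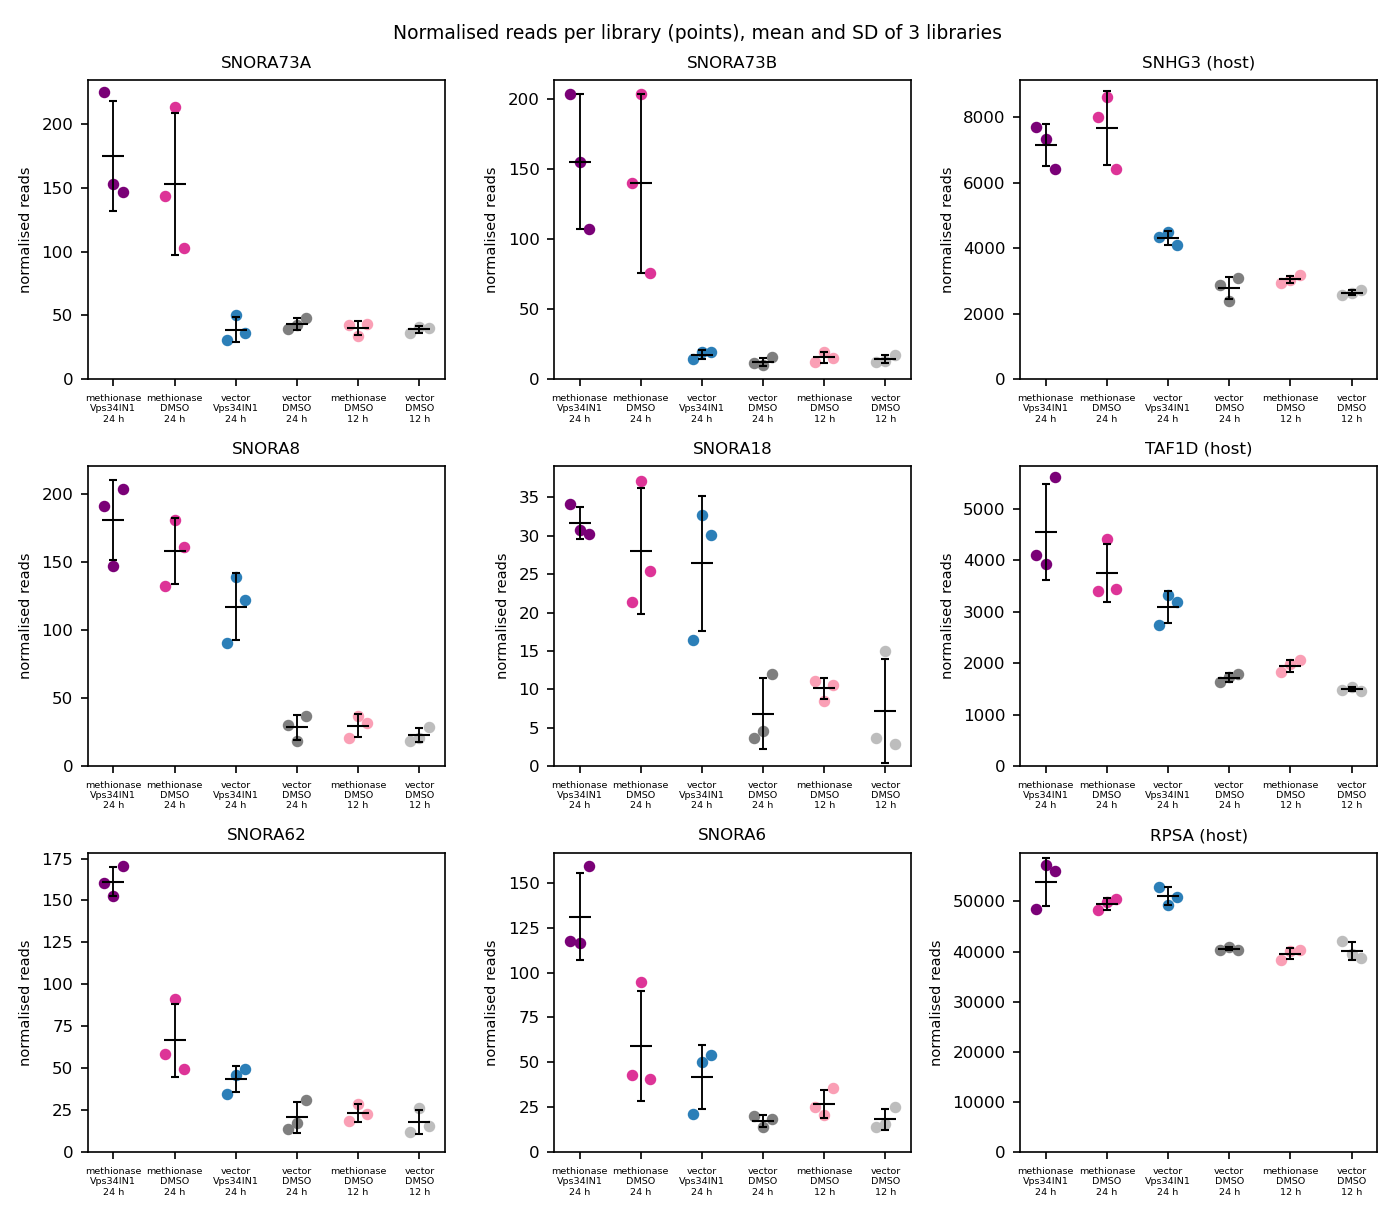
Normalised reads per library (points; bars are the mean and SD of 3, vertical axes start at 0) of 6 members and their 3 hosts in the 6 groups. SNORA73A and SNORA73B are high in both methionase groups at 24 h, SNORA8 and SNORA18 also with Vps34IN1 alone, and SNORA62 and SNORA6 are highest with both treatments, where SNORA62 averaged 161.2 normalised reads.

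Under Vps34IN1, methionase was again followed by higher members. Against the vector with the drug, 48 of 57 were called higher and 0 lower, where 17.3% and 22.2% of all genes were called (51 and 0 members at an unadjusted p below 0.05, 47 and 0 with voom). The median log2 difference was 0.69, and in 50 members the groups did not overlap, against 20.9% of all genes tested. This comparison shares no library with the one in DMSO, but both used the same spread estimate per gene, taken over all 18 libraries. In both, 44 members were called higher, and the share of all genes called in both is not given here. Here too some members reached the level threshold only through groups where they were high. On the vector libraries with the drug alone, 52 of the 57 would pass. Of the 46 that would pass on the vector in DMSO at 24 h alone, 38 were called. SNORA73B had 204.1, 155.1 and 107.6 normalised reads with methionase and the drug, against 14.3, 19.4 and 19.7 with the vector and the drug (log2 difference 1.499 ± 0.15 SE, adjusted p = 8.7e-08). Again no library of one group reached the other. SNORA72, in RPL30, followed with 102.6, 80.3 and 91.9 against 4.1, 14.3 and 8.3, a log2 difference of 1.31 ± 0.12 SE. All 17 members in ribosomal protein genes and all 10 in SNHG genes were called, as were the 3 in EIF4A2. In TAF1D 4 of 6 were called, and SNORA40 (0.31 ± 0.15 SE) and SNORA18 (0.11 ± 0.12 SE) were not. The call of SNORA8 (0.43 ± 0.12 SE, adjusted p = 0.0062) was lost without replicate 1 of the vector with the drug (adjusted p = 0.0556). Members lay above their host in 44 of 50 pairs on the variance-stabilised scale, which compresses genes with few reads. Of the 35 hosts, 10 were called higher and 3 lower, where 17.3% and 22.2% of all genes were called.

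In vector cells at 24 h, 19 of 57 were called higher than in DMSO and 0 lower, where 20.2% and 19.9% of all genes were called (26 and 0 members at an unadjusted p below 0.05, 20 and 0 with voom). The median log2 difference was 0.23, and in 28 members the groups did not overlap, against 26.6% of all genes tested. Of the 19, 7 lay in ribosomal protein genes (of 17 members), 5 in TAF1D (of 6) and 2 in EIF4A2 (of 3). In other hosts lay 3 (of 14), and 0 lay in SNHG genes (of 10). The remaining 2 were among the 7 members that had no host with a row analysed here. Differences between host groups were not tested. This comparison shares its DMSO libraries with the methionase comparison above. The count fell to 12 without replicate 2 of the drug group and to 10 without replicate 3. The largest differences lay in TAF1D. SNORA8 had 90.1, 138.9 and 122.3 normalised reads with the drug and 30.0, 18.6 and 36.9 without, a ratio of 4.11 (log2 difference 1.02 ± 0.12 SE, adjusted p = 3.3e-07). The groups did not overlap. SNORA40, SNORA32, SNORA25 and SNORA18 had log2 differences of 0.78, 0.74, 0.67 and 0.54, and SNORA1 of 0.37 was not called. In the same order they averaged 293.1, 95.2, 35.7, 26.4 and 22.3 normalised reads with the drug. In DMSO they averaged 139.5, 34.1, 7.4, 6.8 and 8.9. TAF1D had a log2 difference of 0.81 ± 0.10 SE and a ratio of 1.79.

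The SNHG members were not called with the drug alone, although 6 of their 7 hosts were. All 10 missed the threshold (median log2 difference 0.15), while SNHG3 (0.62), SNHG17 (0.81), SNHG12 (0.64), SNHG15 (1.02), SNHG8 (0.49) and SNHG11 (0.36) were called higher. These log2 values are not compressed alike in members and hosts. In ratios of mean normalised reads, SNORA73B had 1.42 and SNORA73A 0.9, and their host SNHG3 had 1.55. SNORA16A had 1.51 and SNHG12 1.67, while SNORA9 had 1.53 and SNHG15 2.12. SNORA50C had 1.26 and SNHG25, which was not called, 1.03. A missed call at low read counts does not show that a member was unchanged. SNORA73A had 30.7, 50.1 and 36.3 normalised reads with Vps34IN1 and 39.2, 42.8 and 48.0 in DMSO, which overlap (log2 difference -0.07 ± 0.13 SE). SNORA73B had 14.3, 19.4 and 19.7 against 11.8, 10.2 and 15.7 (0.14 ± 0.15 SE). Over the 50 pairs the member lay above its host in 23, with a Spearman rho of 0.24. Both values rest on the variance-stabilised scale, which compresses genes with few reads, and most members had fewer reads than their host. The difference between member and host was not tested.

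In methionase cells, 16 members were called higher with Vps34IN1 than in DMSO and 0 lower, where 2.95% and 4.98% of all genes were called (36 and 0 at an unadjusted p below 0.05, 15 and 0 with voom). In 20 members the groups did not overlap, against 8.55% of all genes tested. The libraries of both methionase groups also serve in the comparisons above. Of the 16, 13 lay in ribosomal protein genes. SNORA62 had 160.3, 152.9 and 170.3 normalised reads with methionase and the drug, against 58.8, 91.4 and 49.8 with methionase in DMSO (ratio 2.42, log2 difference 0.79 ± 0.12 SE, adjusted p = 0.00015). SNORA70 in RPL10, SNORA6 in RPSA and SNORA33 in RPS12 had log2 differences of 0.74, 0.69 and 0.69. No member of TAF1D was called, and SNORA8 had 191.3, 147.4 and 204.0 against 132.6, 180.8 and 161.4, which overlap (0.13 ± 0.12 SE). Of the hosts of these ribosomal members, RPL10 (0.09), RPSA (0.12) and RPS12 (0.03) were not called. The replicates decided the count, which was 26 without replicate 2 of methionase in DMSO, 8 without replicate 1 and 9 without replicate 3.

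The test of the interaction asks whether the drug difference in methionase cells departs from that in vector cells. It called 1 member higher and 2 lower, where 9.92% and 11.9% of all genes were called, so the members' share lay below the background (3 and 5 members at an unadjusted p below 0.05, 0 and 3 with voom). Leaving out 1 library gave 0 to 6 higher and 1 to 4 lower. SNORA8 was lower by 0.89 ± 0.17 SE (adjusted p = 0.0005), so that its difference with each treatment was smaller when the other was present. SNORA18 (-0.46 ± 0.16 SE, adjusted p = 0.047) lost its call in 10 alternative settings, with adjusted p-values up to 0.132. The other TAF1D members had values between -0.54 and -0.10, and TAF1D itself -0.55 ± 0.15 SE (adjusted p = 0.0092). SNORA72 was the 1 called higher (0.50 ± 0.16 SE, adjusted p = 0.032), and lost its call in 10 settings, with an adjusted p of 0.415 under voom. For the host SNHG3 the interaction was -0.72 ± 0.13 SE (adjusted p = 0.00029), whereas SNORA73B had -0.01 ± 0.22 SE and SNORA73A 0.22 ± 0.19 SE. EIF4A2 had -0.51 ± 0.10 SE (adjusted p = 0.00072), and its SNORA4, SNORA81 and SNORA63 had -0.05, 0.11 and 0.18.

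**Figure D4:**
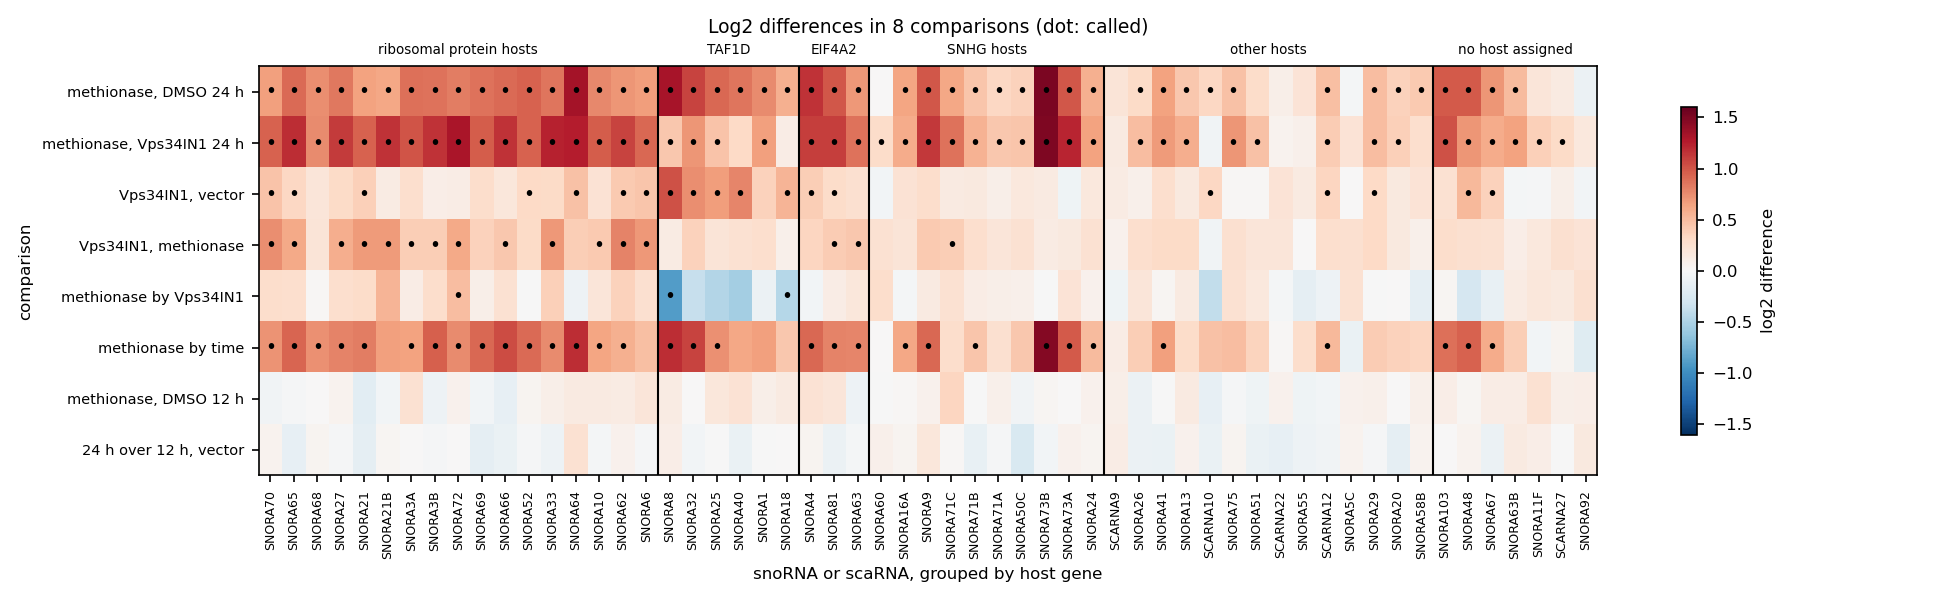
Log2 difference (colour) of each member (horizontal axis, grouped by host gene) in 8 comparisons (vertical axis); dots mark calls. The 2 rows of methionase at 24 h hold 48 calls each, the row of Vps34IN1 in vector cells has 5 of its 19 calls in TAF1D, and the rows of 12 h methionase and of vector cells over time hold none. A host was found for 52 members and had a row analysed here for 50. The group labelled no host assigned holds all members without such a row.

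At 12 h no member was called between methionase and vector, in either direction, with limma or with voom. At an unadjusted p below 0.05, 3 members were higher and 0 lower, while 7.07% of all genes were higher and 10.4% lower, and 0.681% and 1.49% of all genes were called. The median member differed by 0.07, against -0.0048 for all genes, with 39 members above 0 and 18 below. SNORA73B had 12.1, 19.7 and 15.4 normalised reads with methionase at 12 h and 12.1, 13.1 and 17.6 with the vector, and the libraries overlap. SNORA71C had the lowest p (log2 difference 0.34 ± 0.10 SE, adjusted p = 0.085). The time interaction, which sets the methionase difference at 24 h against that at 12 h in DMSO, called 32 members higher and 0 lower, where 5.33% and 6.33% of all genes were called (47 and 0 members at an unadjusted p below 0.05, 27 and 0 with voom). SNORA73B led with 1.47 ± 0.22 SE (adjusted p = 0.00011), followed by SNORA64 and SNORA8 at 1.18 each. Of the 57 members, 45 would pass the level threshold on the vector libraries at 12 h alone. In vector cells in DMSO, no member was called between 24 h and 12 h with limma or voom, where 4.61% of all genes were called higher and 6.88% lower. At an unadjusted p below 0.05, 0 members were higher and 1 lower.

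With methionase in DMSO at 24 h, each of 5 lists of genes that make or bind H/ACA RNAs, process small RNAs or make pseudouridine held fewer calls higher than lower, where 18.1% of all genes were called higher and 21.1% lower. Of the 4 core proteins, the pseudouridine synthase dyskerin (DKC1, log2 difference -0.24 ± 0.06 SE, adjusted p = 0.0011) and GAR1 (-0.24 ± 0.07 SE) were lower with methionase at 24 h in DMSO, NOP10 was higher (0.26 ± 0.08 SE) and NHP2 had 0.07 ± 0.06 SE. DKC1 had 4880.6, 4733.8 and 4572.2 normalised reads with methionase against 5503.9, 5882.7 and 5463.2 with the vector, with no overlap. Of 8 assembly factors 0 were higher and 4 lower, led by the dyskerin chaperone SHQ1 (-0.49 ± 0.07 SE), the snoRNP assembly factor NUFIP1 (-0.37) and NAF1 (-0.30), which holds the place of GAR1 in the nascent particle. Of 13 genes of snoRNA 3′ end trimming, 1 was higher and 5 lower. The deadenylase TOE1 fell by 0.75 (SE 0.08), the exosome helicase MTREX by 0.32 and the lariat debranching enzyme DBR1 by 0.33, and the deadenylase PARN (0.24, adjusted p = 0.046) was called higher, but had only 5.3, 8.5 and 17.3 normalised reads against 3.6, 1.9 and 7.4, which overlap, and lost its call in 7 alternative settings. Of 13 tested subunits of Integrator, which cuts the 3′ ends of small nuclear RNAs, 3 were higher and 8 lower, with INTS5 at -1.27 ± 0.09 SE. Of 12 stand-alone pseudouridine synthases 1 was higher (PUSL1, 0.28) and 5 lower, with TRUB2 at -0.53.

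With the drug alone, 20.2% of all genes were called higher and 19.9% lower, and the lists held calls in both directions. Of the core proteins 1 was higher (NHP2, 0.18) and 2 lower (DKC1 and GAR1, -0.30 each). Of the assembly factors 2 were higher (NOLC1, 0.23, and RUVBL1, 0.15) and 3 lower (SHQ1, -0.37, NAF1, -0.35, and WRAP53, -0.27). Of the genes of 3′ end trimming 3 were higher (TENT4B, 0.49, ZCCHC7, 0.39, and PARN, 0.31) and 1 lower (TOE1, -0.41). PARN rests on few reads, with 11.3, 11.2 and 13.5 normalised reads with the drug and 3.6, 1.9 and 7.4 in DMSO. Of the Integrator subunits 3 were higher and 5 lower, and of the stand-alone pseudouridine synthases 3 and 3. With methionase under the drug, where 17.3% and 22.2% of all genes were called, the core proteins had 1 call higher (NOP10, 0.23) and 0 lower, and neither DKC1 (0.00 ± 0.06 SE) nor GAR1 (0.00 ± 0.07 SE) was called. The assembly factors had 0 higher and 4 lower, the 3′ end genes 1 and 6 (DBR1, -0.60, among the lower), Integrator 1 and 7, and the stand-alone synthases 2 and 2. Of 99 C/D box snoRNAs tested, 85 were higher and 0 lower with methionase in DMSO, 84 and 0 with methionase under the drug, 35 and 0 with the drug in vector cells, and 27 and 0 with the drug in methionase cells.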

How the data were processed

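The 18 HEK293T libraries were made from oligo-dT selected RNA with a dUTP strand-specific protocol and read on a DNBSEQ-G400, per the labels' protocols. Reads were handled against hg38 with limma, DESeq2, featureCounts and STAR 2.7.10b, per the submitters' processing notes, which do not say what each tool did. The annotation and strand setting of the counting are not given in the sources used here. The authors deposited log2 values after a variance-stabilising transformation, 1 per gene and library, of which 1 line names no gene and was left out. Undoing the transformation gave whole reads within 0.01 for 100% of values. Normalised reads are these counts over size factors (0.89 to 1.1), and SDs cover 3 libraries.

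Genes with a mean at least 0.5 above the lowest value were fitted with limma 3.58.1 (R 4.3.3), with 1 mean per group, 8 comparisons, no correction over comparisons and an empirical Bayes variance trend, in a procedure tested on simulated data. The Benjamini-Hochberg adjusted p covers all 17755 tested genes. Members and lists were chosen with earlier results of these data known. Of the table's symbols, 36162 matched RefSeq (GRCh38.p14). Hosts and sequences came from GENCODE release 29, and the row of 1 host was not analysed here. Named genes were the 8 largest called differences per comparison, the members with most reads, those at the threshold, hosts of these, and up to 3 called genes per list. A followed list (both SNORA73 copies and scaRNAs, SCARNA12 among them) was also named. Other examples, such as SNORA58B and SNORA5C, were chosen after their values were seen. Alternatives were other filters and scalings, array weights, no trend, only the groups compared, a replicate block, each replicate left out, and voom, which was added after seeing the data. The sequence of 1 member is not reported here.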

Additional observations from a re-analysis of the deposited data

Results flagged for a closer look

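The drug difference departed between methionase and vector cells, by the interaction test, in 1 member called higher (SNORA72, log2 0.50) and 2 called lower (SNORA8, -0.89, and SNORA18, -0.46). Of all genes tested, 9.92% were called higher and 11.9% lower, so the members' share lay below the background. SNORA72 and SNORA18 lost their calls in several alternative settings, and SNORA72 had an adjusted p of 0.415 under limma voom. The methionase difference departed between 12 h and 24 h, by the same kind of test, in 32 members called higher, where 5.33% of all genes were called higher and 6.33% lower. The largest were SNORA73B (1.47), SNORA64 (1.18), SNORA8 (1.18), SNORA32 (1.08), SNORA66 (1.05), SNORA73A (0.99), SNORA3B (0.95) and SNORA48 (0.95). The 98 matching rows below the level threshold, which were left out of the limma tests at that threshold, took 0.0016% of reads with methionase and Vps34IN1, 0.00112% with methionase in DMSO and 0.000724% with the vector and Vps34IN1, against 0.000477% with the vector in DMSO at 24 h.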

How the results depend on the processing

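With methionase against vector at 24 h, the count of members called higher stayed between 44 and 50 in DMSO and between 43 and 49 under the drug when 1 library was left out. It was 26 in each comparison under a stricter filter at 1, which left 27 members to test. At 12 h it was 1 with array weights and 1 with only the groups compared. For Vps34IN1 in vector cells, array weights gave 37 and leaving out libraries 10 to 24. The share of all genes called in each alternative setting is not given here, so these member counts cannot be set against it. For Vps34IN1 in methionase cells it was 9 with no filter, the stricter filter, array weights or only the groups compared, and 8 to 26 with a library left out. The drug interaction called 0 higher with no filter, the stricter filter, array weights, only the groups compared or voom (0 to 6 with a library left out). It called 1 lower with no filter or the stricter filter, and 4 with array weights (1 to 4 with a library left out). The time interaction called 26 to 39. For 24 h against 12 h in vector cells, 1 was lower with array weights. The share with methionase at 12 h was 0.00671% over every matching row. RPS2 turned to -0.34 with methionase and to -0.27 with Vps34IN1 under quantile normalization, and the cause was not tested. Replicate numbers did not pair the samples (correlations -0.308 to 0.162). With a replicate block, 49 and 50 members were higher with methionase in DMSO and under the drug, 19 and 16 with the drug in vector and methionase cells, and 34 in the time interaction. Low read counts limit single members: one with under about 10 normalised reads shows only large differences.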
